A study of Rattus norvegicus with 6 samples.

Results

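The enzymes of sterol synthesis were followed through the pathway, from Hmgcs1 to Hsd17b7, in rat liver on 2 diets. Members were all probe sets of the deposited value table whose single gene symbol in the platform annotation was Hmgcs1, Idi1, Fdps, Fdft1, Sqle, Lss, Cyp51, Msmo1 or Hsd17b7. This gave 21 of 8740 probe sets, for 8 of the 9 genes, among 4736 genes in all, since no probe set carried the symbol Hmgcs1 and that gene is not analysed here. Liver RNA of male Sprague Dawley rats, a common outbred laboratory strain, was hybridized to Affymetrix RG_U34A arrays, 1 array per sample. Three-week liquid diets were given to both groups by total enteral nutrition, which delivers feed by tube. The 3 Control samples came from rats on 5% corn oil at 187 kcal per kg of metabolic body mass (kg to the power 3/4) per day, and the 3 NASH samples from rats on 70% corn oil at 220 kcal on the same basis. NASH stands for non-alcoholic steatohepatitis, fatty liver with inflammation, and corn oil is rich in polyunsaturated fat. Fat content and energy supply differed together, so the comparison is between whole diets. The sources used here do not say that the samples came from separate rats, so every p-value below refers to the scatter of these arrays, part or all of which may be technical.

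Cholesterol is built from acetyl-CoA in a chain of reactions that begins in the cytosol and ends in the endoplasmic reticulum. The early steps make isoprene units, the middle steps join them into squalene, and the late steps close the rings and trim the product. The genes of the chain share a known regulator, SREBP-2, a membrane-bound transcription factor that is released when sterols run low, and the liver makes much of the body's cholesterol.

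Both diet groups held an array that stood apart in some genes. Control 2 was low for most of the sterol genes, and differences of named sterol genes that it moves by over 1.5 times are given with and without it. NASH 2 carried transcripts of fat and muscle: summed normalised signals of 9 measured adipose markers reached 5904 at the highest NASH array against 688 at the lowest, with 598 to 614 in Control, and those of 8 skeletal muscle markers reached 2439 against 86.6, with 65.4 to 121 in Control. Ucp1, the brown fat uncoupling protein, read 1241 in NASH 2 and at most 21.9 elsewhere (X03894_at). Markers of leukocytes summed to 1004 to 1302 in Control and 942 to 1550 in NASH (8 measured genes), and those of stellate and bile duct cells to 474 to 710 and 348 to 1176 (6 measured genes). Hepatocyte markers were bright in all 6 arrays, with summed signals of 75451 to 77910 in Control and 71437 to 75473 in NASH over 9 measured genes. Control 3 had the highest ratio of 3′ to 5′ actin control signal, 5.07 against 2.15 to 2.93, a sign of shorter RNA or labelled product. All values below are quantile-normalised MAS5 signals, and differences are NASH minus Control on the scale log2(signal + 2.28). Array signals of bulk tissue do not tell fewer cells of a type from less RNA per cell.

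Each tested member probe set had a higher mean in NASH than in Control, and none passed the threshold. Of the 21 probe sets, 19 lay above the filter on dim signals and were tested. Their differences ran from 0.017 to 2.66 with a median of 0.90, beside a median of −0.021 over all 5244 probe sets tested. By limma with Benjamini-Hochberg adjustment over all probe sets, 0 of 19 were called at an adjusted p under 0.05, where 0.133% of all tested were called, and the lowest adjusted p was 0.145 for Idi1. At an unadjusted p under 0.05, 6 of 19 were higher and 0 lower, against 3.83% higher and 4.04% lower of all tested. All 3 NASH values lay above all 3 Control values for 6 of 19 (Idi1, Sqle, both tested Msmo1 probe sets, Hsd17b7 and 1 of 5 for Cyp51), against 6.56% of all tested. The filter had kept out a second Idi1 probe set far below it, at a mean of 2.21 log2, and another Lss probe set just below it, at 3.70, where the cutoff was 3.95. The dimmest tested members were Lss U31352_at at 4.98 and Cyp51 rc_AI230255_at at 5.32.

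**Figure D1:**
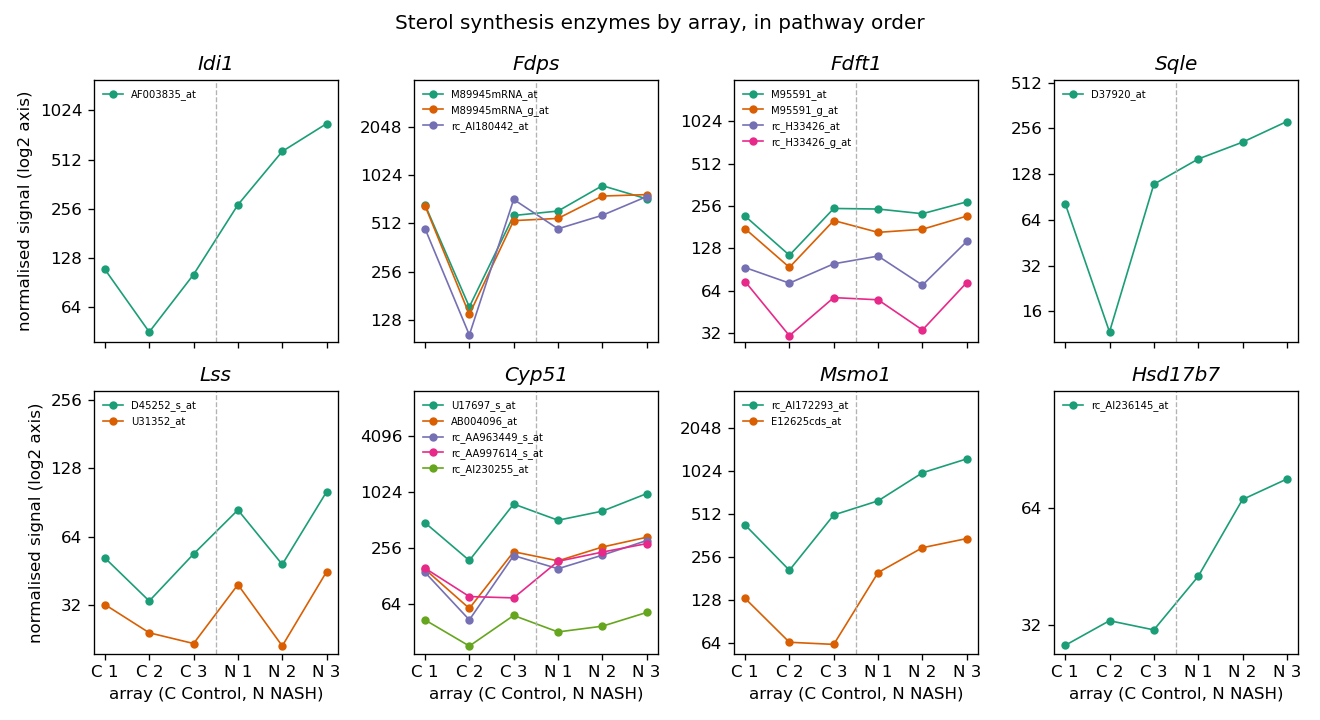
Normalised signal (vertical axis, log2 spacing) of each tested probe set in the 6 arrays (C, Control; N, NASH), 1 panel per gene in pathway order, each with its own range; lines only join the points of 1 probe set, and the dashed line separates the diets. Idi1, Sqle, Msmo1 and Hsd17b7 lie higher in all 3 NASH arrays than in any Control array, while Fdps and most Cyp51 probe sets overlap and are lowest in Control 2.

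Control 2 was the lowest of the 6 arrays for 14 of 19 member probe sets, against 22.1% of all tested. Over all tested, Control 3 was the lowest array about as often, for 21.5%. The difference of Control 2 from the mean of Control 1 and Control 3 had a median of −1.03 on the log2 scale over the members. The median over all tested was 0.0076. For 10 of 19 members it lay more than 1 log2 unit below, as it did for 6.33% of all tested. NASH 3 was the highest array for 17 of 19, against 13.1% of all tested. Without Control 2, 16 of 19 differences were above 0 and 3 below, and the median difference was 0.32 in place of 0.90. The 19 probe sets stand for 8 genes, some with several probe sets. By the brightest tested probe set of each gene, the median was 0.73 in place of 0.91, with 8 of 8 genes higher in both fits. Without it 6 of 19 were higher at an unadjusted p under 0.05 (4.46% of all tested), and 6 of 19 did not overlap (12.4% of all tested). For 12 of 19 probe sets the difference shrank by over 1.5 times or turned below 0 when Control 2 was left out. Control 2 was singled out by the members' own values, and leaving out a lowest Control array makes a difference smaller by construction. Without NASH 2 the median difference was 0.86, with 19 of 19 higher, 8 of 19 at an unadjusted p under 0.05 (3.22% of all tested) and 9 of 19 without overlap (10.8% of all tested). With both Control 2 and NASH 2 left out, the median was 0.40, with 17 of 19 higher. Limma called 0 of 19 in each of these fits, against 0.0191% of all tested without Control 2, 0.324% without NASH 2 and 0.305% without both.

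**Figure D2:**
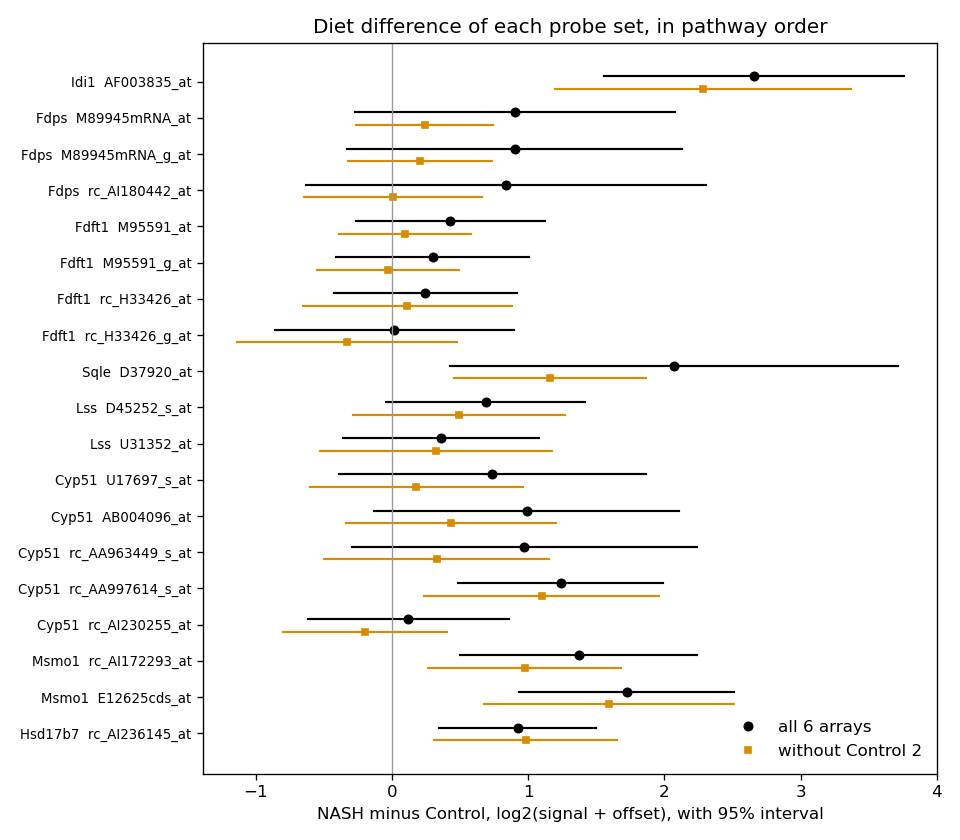
NASH minus Control difference of each tested probe set (horizontal axis, log2 units) with its 95% interval from limma, in pathway order; black, all 6 arrays; orange, without Control 2. The Idi1 estimate stays above 2 in both fits (2.66 and 2.28), while those of Fdps lie between 0.84 and 0.90 with all arrays and between 0.010 and 0.24 without Control 2.

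Idi1 isomerizes isopentenyl diphosphate to dimethylallyl diphosphate, the primer onto which isoprene units are added. Normalised signals of the probe set AF003835_at were 108, 44.7 and 101 in Control 1, 2 and 3, and 270, 574 and 850 in NASH 1, 2 and 3. The lowest NASH value was thus above every Control value. The difference was 2.66 ± 0.48 (standard error, n = 3 per group; 95% interval 1.55 to 3.76), or 6.30-fold, with a limma adjusted p of 0.145, rank 20 by p among 5244. It lay between 2.28 (without NASH 3, and 2.28 also without Control 2) and 3.08 (without NASH 1) when single arrays were left out. With the signals as deposited, not scaled between arrays, the difference was 2.44 and Idi1 was called (limma adjusted p = 0.0193). That setting lowers the median of all probe sets by 0.15 (−0.15), and Idi1 lay 2.61 above that median. The second Idi1 probe set, rc_AI045395_at, had signals of 0.89 to 4.48 in all 6 arrays, near the offset, and was not tested. The promoter window of Idi1 is shown because this gene had the largest difference of the 8 members. It runs from 250 bases before to 50 after the annotated start in RefSeq (build GRCr8, chr17:66547475-66547774, minus strand), and capitals mark matches to CCAAT, the box bound by the factor NF-Y, which read ATTGG where the match is on the other strand.
Idi1: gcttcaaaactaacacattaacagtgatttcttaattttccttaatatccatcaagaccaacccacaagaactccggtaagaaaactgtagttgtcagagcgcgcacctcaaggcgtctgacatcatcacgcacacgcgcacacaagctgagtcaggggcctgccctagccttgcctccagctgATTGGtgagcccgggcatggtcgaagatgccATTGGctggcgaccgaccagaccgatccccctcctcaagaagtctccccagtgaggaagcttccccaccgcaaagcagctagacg

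Fdps joins isoprene units into farnesyl diphosphate, the branch point between sterols, dolichol, ubiquinone and prenylated proteins. Signals of its brightest probe set, M89945mRNA_at, were 669, 155 and 574 in the Control arrays and 612, 881 and 729 in the NASH arrays. Control 2 alone was low, and Control 1 lay above NASH 1. The difference was 0.90 ± 0.51 (n = 3 per group, 95% interval −0.27 to 2.08, limma adjusted p = 0.651) and 0.24 ± 0.21 without Control 2 (−0.27 to 0.74). The other Fdps probe sets read alike, at 139 and 103 in Control 2 against 474 to 775 in the other 5 arrays. Their differences were 0.90 and 0.84 with all arrays, and 0.21 and 0.010 without Control 2. The Fdps window is shown to place a known sterol regulatory element, whose form TCACNCGAG was searched because it is known from this promoter (GRCr8, chr2:176804767-176805066, minus strand). The element reads TCACACGAG, 103 bases before the annotated start, with a CCAAT box at 85 bases before it. Capitals mark these, a second CCAAT box read on the other strand as ATTGG, and a GC box (GGGCGG, bound by Sp1) read as CCGCCC.
Fdps: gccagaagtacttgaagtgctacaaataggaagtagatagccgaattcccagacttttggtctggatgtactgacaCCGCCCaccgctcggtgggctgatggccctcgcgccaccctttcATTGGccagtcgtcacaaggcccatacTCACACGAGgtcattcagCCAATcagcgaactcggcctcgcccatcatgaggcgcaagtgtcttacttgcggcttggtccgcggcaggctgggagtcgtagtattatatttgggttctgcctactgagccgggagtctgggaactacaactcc

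Fdft1, squalene synthase, couples farnesyl diphosphate head to head and is the first step committed to sterols. By its brightest probe set it had the smallest difference of the 8 member genes. That probe set, M95591_at, read 217, 115 and 246 in Control and 244, 226 and 274 in NASH, so that the groups overlapped and Control 2 was again the lowest. Its difference was 0.43 ± 0.30 (n = 3 per group, 95% interval −0.27 to 1.12, limma adjusted p = 0.724), and 0.095 without Control 2. M95591_g_at differed by 0.30, rc_H33426_at by 0.25 and rc_H33426_g_at by 0.017, with limma adjusted p-values of 0.820, 0.846 and 0.994. Without Control 2 these were −0.031, 0.11 and −0.33. The interval of rc_H33426_g_at with all arrays, −0.86 to 0.90, leaves room for a difference of either sign.

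Sqle, squalene epoxidase, adds the oxygen that later becomes the sterol hydroxyl group and is a rate-limiting step of the late pathway. Its probe set D37920_at read 82.0, 11.7 and 110 in the Control arrays, and 161, 208 and 284 in the NASH arrays. Groups did not overlap, and Control 2 minus the mean of the other Control arrays was −2.80 log2 units, the widest such gap among the tested members. The difference was 2.07 ± 0.71 (n = 3 per group, 95% interval 0.43 to 3.72; 4.21-fold; limma adjusted p = 0.535). Without Control 2 it was 1.16 ± 0.30 (0.45 to 1.87; 2.23-fold; adjusted p = 0.356). Leaving out the low array therefore lowered the estimate and narrowed its error.

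Lss, lanosterol synthase, folds oxidosqualene into the ring system. D45252_s_at read 51.5, 33.3 and 53.7 in Control and 83.8, 48.3 and 101 in NASH, with NASH 2 inside the Control range. Its difference was 0.69 ± 0.32 (n = 3 per group, 95% interval −0.042 to 1.42, limma adjusted p = 0.618). Unlike Fdps, it depended on NASH 2 as well: the difference was 1.00 without NASH 2 (0.996), 0.49 without Control 2 and 0.81 without both. The lowest value with any single array left out was 0.47, without NASH 3. The probe set U31352_at differed by 0.36 ± 0.31 (limma adjusted p = 0.785), with NASH 2 the lowest of the 6 arrays at 21.1, and by 0.67 without NASH 2 and 0.16 without NASH 3. The dim probe set E12275cds_s_at was not tested, with signals of 4.90 to 11.05 in Control and 11.4 to 27.1 in NASH.

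Cyp51, lanosterol demethylase, is the cytochrome P450 of the pathway and the step after ring closure. It had 5 tested probe sets, and they did not read alike. U17697_s_at, the brightest, read 479, 188 and 761 in Control and 509, 638 and 985 in NASH. Control 3 was above NASH 1 and NASH 2, and Control 2 was the lowest. Its difference was 0.74 ± 0.49 (n = 3 per group, 95% interval −0.39 to 1.87, limma adjusted p = 0.709), and 0.18 without Control 2. AB004096_at and rc_AA963449_s_at, in which Control 3 lay above NASH 1 only, differed by 0.99 and 0.97, and by 0.43 and 0.33 without Control 2. The dimmer rc_AI230255_at differed by 0.12, and by −0.20 without Control 2.

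The fifth Cyp51 probe set, rc_AA997614_s_at, had a different profile. It read 155, 76.7 and 74.3 in Control and 184, 231 and 285 in NASH, with no overlap between groups, and both Control 2 and Control 3 were low. Its difference was 1.24 ± 0.33 (n = 3 per group, 95% interval 0.49 to 1.99, limma adjusted p = 0.402) and 1.10 without Control 2. Likeness was measured as the root mean square distance between centred log2 values over the 6 arrays. The other 4 Cyp51 probe sets lay 0.64 to 0.70 log2 units from it, at ranks 826 to 1388 among 5243, while E12625cds_at of Msmo1 lay 0.25 from it, at rank 8. Both ordered the arrays as Control 3, Control 2, Control 1, NASH 1, NASH 2 and NASH 3 from low to high. Control 3 was also the array with the actin 3′ to 5′ ratio of 5.07, whose part in these values was not tested, and where these probes lie in their transcripts was not analysed here. This probe set was singled out after its values were seen.

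Msmo1, the methylsterol oxidase, removes methyl groups from the new ring system and follows Cyp51. rc_AI172293_at read 427, 206 and 501 in Control and 629, 989 and 1237 in NASH. E12625cds_at read 131, 64.5 and 62.3 in Control and 198, 296 and 343 in NASH. In both probe sets all NASH arrays were above all Control arrays, although they disagreed on Control 3, the highest Control array in the former and the lowest in the latter. The differences were 1.37 ± 0.38 (n = 3 per group, 95% interval 0.50 to 2.24; 2.58-fold; limma adjusted p = 0.437) and 1.72 ± 0.34 (0.93 to 2.51; 3.30-fold; adjusted p = 0.197). Without Control 2 they were 0.97 and 1.59, and the lowest value for the second with any array left out was 1.53, without Control 3. The Msmo1 window is shown as the promoter of a member without overlap in both of its probe sets (GRCr8, chr16:29746863-29747162, plus strand), with CCAAT and GC boxes in capitals.
Msmo1: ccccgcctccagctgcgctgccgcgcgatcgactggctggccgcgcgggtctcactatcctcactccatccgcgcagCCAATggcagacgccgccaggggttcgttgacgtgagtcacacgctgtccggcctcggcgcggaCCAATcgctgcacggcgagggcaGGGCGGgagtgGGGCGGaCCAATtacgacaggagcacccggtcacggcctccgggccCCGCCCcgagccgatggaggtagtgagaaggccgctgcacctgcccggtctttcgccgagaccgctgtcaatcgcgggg

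Hsd17b7 is the keto reductase that completes the removal of the ring methyl groups, and is the last step among the members. Its probe set rc_AI236145_at read 28.4, 32.8 and 31.1 in Control and 42.7, 67.3 and 75.9 in NASH, without overlap. The Control arrays were close to each other, and Control 2 was their highest. The difference was 0.92 ± 0.25 (n = 3 per group, 95% interval 0.35 to 1.497; 1.90-fold; limma adjusted p = 0.437), and 0.98 ± 0.28 without Control 2. Among the 19 tested probe sets it was the only one in which Control 2 lay above the mean of the other Control arrays, by 0.13. Its window is shown for comparison with those of Fdps and Msmo1 (GRCr8, chr13:84722705-84723004, minus strand), with the same capitals.
Hsd17b7: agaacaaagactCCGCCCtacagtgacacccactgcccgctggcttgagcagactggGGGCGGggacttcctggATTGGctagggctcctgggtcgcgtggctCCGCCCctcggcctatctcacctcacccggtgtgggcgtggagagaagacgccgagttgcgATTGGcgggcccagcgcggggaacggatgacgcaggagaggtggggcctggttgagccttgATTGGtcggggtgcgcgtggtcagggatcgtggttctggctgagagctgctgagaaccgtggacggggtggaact

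Windows were found in the RefSeq table for 7 of the 9 genes, Hmgcs1 among them; Fdft1 and Sqle had no entry. CCAAT was found on either strand in 6 of the 7 windows, with Cyp51 the exception, against 37.5% of 33469 rat windows of 300 bases. The GC box GGGCGG was in 6 of 7, with Idi1 the exception, against 33.1%. The general form of the sterol regulatory element, TCACNCCAC, was in 0 of 7, against 1.12%. TCACNCGAG is the form known from the Fdps promoter, so its match there (1 of 7 windows, 0.415% of all windows) was fixed by the choice of motif and nothing is read from it. Motifs were searched on both strands, share no letters with each other in these windows, and were chosen with the windows in view. A match is a description of letters, not of a bound site, and no match says nothing about the factor.

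Along the pathway the differences of the brightest tested probe sets were 2.66 for Idi1, 0.90 for Fdps, 0.43 for Fdft1, 2.07 for Sqle, 0.69 for Lss, 0.74 for Cyp51, 1.37 for Msmo1 and 0.92 for Hsd17b7. They did not change in 1 direction from the early to the late steps. Without Control 2 the same order read 2.28, 0.24, 0.095, 1.16, 0.49, 0.18, 0.97 and 0.98. Fdps, Fdft1 and Cyp51 were the members nearest to 0 in that fit. Their intervals spanned 0, as did that of Lss (−0.28 to 1.27). Of the Cyp51 probe sets only rc_AA997614_s_at had an interval above 0 in that fit, at 1.10 (0.24 to 1.96). Centred on each gene, the mean of the 8 genes was −0.27, −1.47 and −0.098 in Control 1, 2 and 3, and 0.25, 0.59 and 0.99 in NASH 1, 2 and 3. The groups thus did not overlap in this mean, and Control 1 and Control 3 lay nearer to NASH 1 than to Control 2.

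The hybridization date record in the instrument files was filled for Control 1, Control 3, NASH 1 and NASH 2. It was blank for Control 2 and NASH 3, the arrays in which the members were most often lowest and highest. Among the 4 arrays with a filled record, 13 of 19 member differences were above 0 and 6 below, with a median of 0.12 beside −0.033 over all tested. Between the 2 with a blank record all 19 were above 0, with a median of 2.22 beside −0.017 over all tested, and 1 array per group allows no test. Idi1 differed by 1.91 in the former and 4.18 in the latter, and Sqle by 0.95 and 4.36. For Fdps M89945mRNA_at the values were 0.25 and 2.22. All 6 arrays were of 1 chip lot and were scanned on 1 day. What the blank record stands for was not tested.

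The other genes of the pathway were also higher in NASH where they could be tested, without a call. Of 12 listed genes, 7 had a probe set and 6 were tested. All 6 were higher in NASH and 0 passed the threshold, or an unadjusted p under 0.05 in their brightest probe set, with a median difference of 0.37. Control 2 was the lowest array for each of the 6, and without it 4 of 6 were higher, with a median of 0.087. Dhcr7, which makes the last double-bond reduction, differed by 0.58 ± 0.34 (limma adjusted p = 0.671, and 0.27 without Control 2). Its other probe set, AB016800_at, differed by 0.85 (0.56 without Control 2). That probe set had an unadjusted limma p of 0.037 and an adjusted p of 0.593. Mvk, mevalonate kinase, differed by 0.35 ± 0.26, Ebp, a sterol isomerase, by 0.38 ± 0.30, and Mvd, which decarboxylates mevalonate diphosphate to isopentenyl diphosphate, by 0.42 ± 0.33 (limma adjusted p = 0.734, 0.747 and 0.755). Without Control 2 these were 0.22, 0.057 and 0.12. The dimmer Mvk probe set rc_AA924198_s_at differed by 0.45, and by 0.12 without Control 2. Acat2, the thiolase that feeds the pathway, differed by 0.28 ± 0.46 in its brightest probe set, rc_AA859980_g_at (limma adjusted p = 0.897), and by −0.24 without Control 2. Its dimmer rc_AA859980_at read 87.0, 1.87 and 160 in Control and 92.2, 106 and 170 in NASH, so that its Control 2 value lay below the offset, and its difference of 1.63 became 0.0038 without that array.

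Genes that draw on the same isoprene units were also mostly higher, without a call. Of 12 listed genes of protein prenylation and ubiquinone synthesis, 5 were tested, 4 higher and 1 lower, with a median of 0.40. Without Control 2, 3 of 5 were higher, with a median of 0.29. Fntb and Fnta, the subunits of protein farnesyltransferase, differed by 0.41 ± 0.42 and 0.40 ± 0.19, and Coq3, a ubiquinone methyltransferase, by 0.42 ± 0.24 (limma adjusted p from 0.618 to 0.822). Without Control 2 the values of Fntb (rc_AI136396_at, its brightest probe set), Fnta and Coq3 were −0.0077, 0.39 and 0.29. The dimmer Fntb probe set rc_AI230914_at differed by 0.68, and by 0.38 without Control 2. Rabggtb, a subunit of the enzyme that prenylates Rab proteins, differed by 0.32 ± 0.29 (limma adjusted p = 0.790), with overlap between groups. Rabggta, a subunit of the same enzyme and the 1 lower gene, differed by −0.14, and by −0.35 without Control 2. Genes of sterol sensing and handling were split. Of 17 listed, 6 were tested, 3 higher and 3 lower, with a median of 0.050 (−0.22 without Control 2), and 0 passed, with 1 at an unadjusted p under 0.05 (Scarb1). Insig1, which holds the SREBP complex in the endoplasmic reticulum and is itself an SREBP target, had signals of 1252, 454 and 2429 in Control and 1212, 1321 and 1191 in NASH for L13619_g_at. Control 2 was its lowest and Control 3 its highest array, and its difference was 0.15, or −0.49 without Control 2. The other Insig1 probe set, L13619_at, differed by 0.0092, and by −0.68 without Control 2. Srebf1, the fatty acid branch of the SREBP family, differed by −0.35 ± 0.20, with all NASH arrays below all Control arrays, and Scarb1, the receptor for high density lipoprotein, by 0.71 ± 0.28 (limma adjusted p = 0.651 and 0.586). Without Control 2 this Scarb1 probe set, rc_AA874843_s_at, differed by 0.43. Scarb1 AF071495_s_at and D89655_at both differed by 0.50, and by 0.68 and 0.33 without Control 2. Lcat, which esterifies plasma cholesterol, differed by −0.15 ± 0.18 (limma adjusted p = 0.848), and Cyp7a1, which starts the conversion of cholesterol to bile acids, by 0.39 ± 0.59 (limma adjusted p = 0.891). The Cyp7a1 value was 0.65 without Control 2 and 0.099 without NASH 2.

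**Figure D3:**
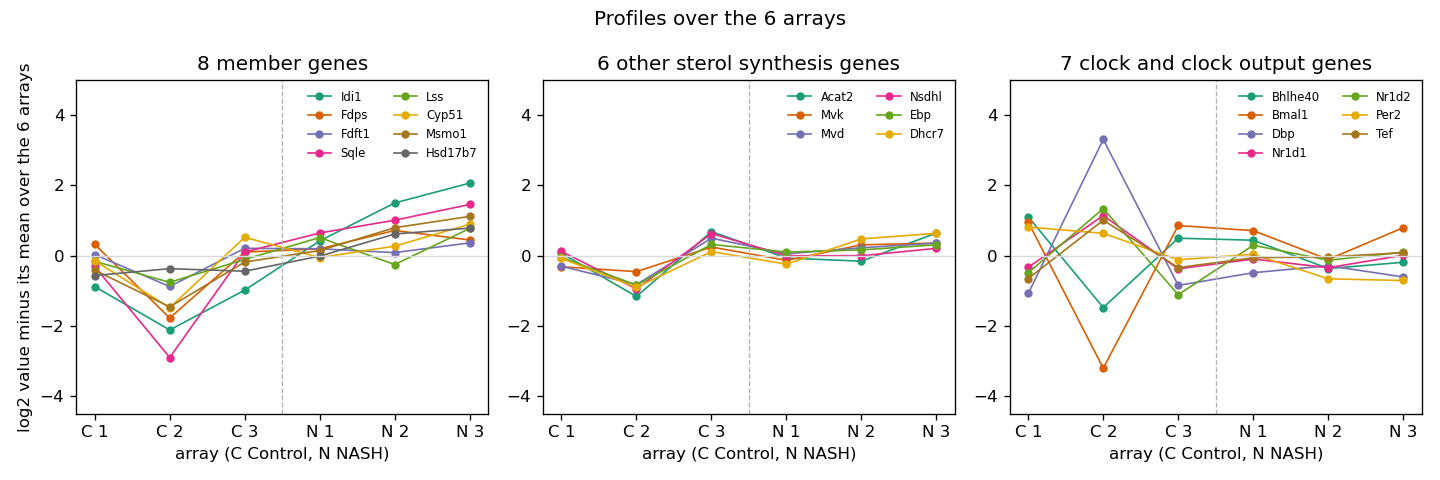
Log2 values minus the gene's own mean over the 6 arrays (vertical axis) for the 8 member genes, 6 other sterol synthesis genes and 7 clock genes, each by 1 bright probe set; arrays on the horizontal axis (C, Control; N, NASH), lines only join the points of 1 gene. Control 2 is the lowest array for every plotted sterol gene but Hsd17b7, highest for Dbp (below the filter, not tested) and lowest for Bmal1.

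Genes of the circadian clock also set Control 2 apart, without a call between the diets (lowest limma adjusted p of the list 0.581). Of 10 probe sets for 7 measured clock genes, Control 2 was the highest array for 6 (of Dbp, Nr1d1, Nr1d2 and Tef) and the lowest for 3 (of Bmal1 and Bhlhe40). Over all tested probe sets it was the highest for 23.9% and the lowest for 22.1%. Both Dbp probe sets and Nr1d1 M25804_at lay below the filter and were not tested, so they are outside the set behind those shares. Dbp, a clock output factor, read 135 in Control 2 and 4.30 to 9.10 elsewhere for J03179_g_at. Bmal1, the core activator of the clock, read 1.90 in Control 2 and 33.5 to 72.3 elsewhere for AF015953_at. Summed signals of the measured clock genes were 258 to 553 in Control and 230 to 306 in NASH. Sterol synthesis is known to follow the time of day in rat liver, and the part of the clock genes in the member values was not tested. Without NASH 2, the array with the fat and muscle transcripts, the differences of Idi1, Sqle and E12625cds_at were 2.60, 2.10 and 1.68.

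Outside the members, the genes with the profile nearest to the mean of the 8 members were Slc16a1, Acsl3, Plin2, Ppp2r2c and Slc25a20. The measure was the root mean square distance of centred log2 values over the 6 arrays, ranked over 3132 other genes, and it uses the diet difference and Control 2 alike. Slc16a1, a transporter of lactate and ketone bodies, lay 0.15 log2 units from the mean, with signals of 268, 85.5 and 229 in Control and 316, 361 and 508 in NASH. Acsl3, a long-chain acyl-CoA synthetase, lay 0.19 from it, Plin2, a coat protein of lipid droplets, 0.21, Ppp2r2c, a phosphatase regulatory subunit, 0.22, and Slc25a20, the carnitine carrier of mitochondria, 0.27. Their differences ran from 0.91 (Slc25a20) to 1.14 (Slc16a1), none past the threshold. The members themselves lay between 0.13 (Msmo1) and 0.77 (Idi1) from their mean, and the median of the other genes was 0.84. Each member is part of that mean and the other genes are not, so the members' smaller distances are partly built in.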

How the data were processed

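Values deposited by the authors are MAS5 intensities on a linear scale, with the software named in the submitters' processing notes (version and scaling target: not given in the sources used here). Other information (array type, tissue, hybridization date) came from the deposited instrument records, per the file headers. The arrays were not on a common scale (trimmed means 73.6 to 117, 2% trimmed at each end), so they were quantile normalised. An offset of 2.28, the 10th percentile, was added and log2 taken, which understates differences of dim probe sets. After removal of 59 array controls from 8799 probe sets, the 5244 with a mean log2 above the 40th percentile (3.95) were tested. NASH was compared with Control by limma 3.58.1 in R 4.3.3, two-sided, with a prior following intensity (3.90 prior degrees of freedom beside 4 residual), and called at a Benjamini-Hochberg adjusted p under 0.05. The fit was also run on simulated arrays with independent scatter and no array that stands apart. That run does not bear on the effect of Control 2 or NASH 2. Symbols came from the platform annotation, and promoter windows from RefSeq. The number of arrays, 3 per group, limits the precision. Text names all member probe sets and, of each sterol list, the 4 genes with the smallest p in their brightest probe set. It also names a few clock and marker genes and the 5 genes nearest in profile. Acat2, Insig1 and Rabggta were named after their values were seen. Members and lists were chosen with earlier results of these data known. Other settings tried changed the scaling, the offset, the filter, the prior, the weights and blocks of arrays, and the arrays included.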

Additional observations from a re-analysis of the deposited data

How the results depend on the processing

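All values rest on 3 arrays per group, and no member passed the adjusted threshold of limma except Idi1 (2.44) with no scaling between arrays, where 1 member probe set was called. Over all probe sets 7 were called, and 14 with no scaling, 0 with no filter (635 at an unadjusted p under 0.05) and 3 with no intensity trend. With array weights 18 were called, and with the hybridization date record (filled or blank) as a block 3. Only arrays with filled date records gave 1. Leaving out both Control 2 and NASH 2 gave 16, and leaving out single arrays gave 0 to 17 (17 without NASH 2). At an adjusted p under 0.1 there were 14 and at an unadjusted p under 0.05 there were 413. With the replicate number as a block 1 was called, none of the members; same-numbered arrays did not deviate together (correlations of 0.048, −0.021 and 0.073), so the numbers were not taken to pair the samples. The number of members higher ranged from 13 to 19 over these settings. Their median difference was 0.12 on filled date records and 0.32 to 1.17 with single arrays left out. Signs turned for Fdft1 rc_H33426_g_at with no scaling (−0.17), with a common trimmed mean (−0.012) and with array weights (−0.089). It read −0.58 on filled date records, −0.040 without both Control 2 and NASH 2, and −0.33 to 0.31 with single arrays left out. Cyp51 rc_AI230255_at read −0.068 with no scaling, −0.39 on filled date records, −0.16 without both, and −0.20 to 0.31 with single arrays left out. Fdft1 M95591_g_at read −0.15 on filled date records and −0.031 to 0.51 with single arrays left out. On filled date records signs also turned for Fdps rc_AI180442_at (−0.16), Fdft1 rc_H33426_at (−0.12) and Cyp51 U17697_s_at (−0.081). The cause was not tested. With motifs searched on the sense strand only, CCAAT was in 2 of 7 windows.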
